A study of Ambystoma mexicanum with 17 samples.

Results

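The genes described here encode matrix proteases and their inhibitors, measured as RNA in the axolotl forelimb. They were chosen by name, under a rule set with earlier results of these data known. It took every gene in the deposited tables whose symbol is MMP, ADAM, ADAMTS, TIMP or CTS followed by its usual number or letter. The rule found 60 genes of 122775, namely 14 MMP, 10 ADAM, 19 ADAMTS, 4 TIMP and 13 cathepsin genes, and 54 of them had enough reads to be tested. All animals were white (d/d) axolotls. Blastemas, the buds of cells from which a limb regrows, were induced by nerve deviation and collected 10 days after injury together with their wound epithelium. The 17 libraries of polyadenylated RNA came from uninjured forelimb tissue (n = 3), blastemas of purely anterior tissue (n = 5), blastemas of purely posterior tissue (n = 4) and posterior blastemas treated with 25 uM U0126 (n = 5). U0126 blocks MEK, the kinase that activates ERK, and the treated posterior blastemas are called inhibitor blastemas below. Holtfreter's solution and DMSO are named in the labels as well, and which of them the untreated blastemas received is unclear. The animals' age is not given, nor whether each library had an animal of its own, so p-values reflect only the variation among libraries, which may be technical.

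Matrix metalloproteinases (MMPs) are zinc enzymes that cut collagens and other matrix proteins, either after secretion or while anchored in the cell membrane. ADAMs are membrane enzymes that release growth factors and receptors from the cell surface, and the related secreted ADAMTS enzymes cut proteoglycans such as versican and aggrecan or trim procollagen. The TIMPs bind and block MMPs and, in part, ADAM and ADAMTS enzymes. Cathepsins are proteases that work mostly in lysosomes, and some of them also degrade matrix. In salamander limbs, breakdown of matrix by such enzymes is a known part of forming a blastema.

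Levels are given as CPM, counts in each 1000000 counts of a library after scaling. They are not corrected for transcript length and are compared between libraries, not between genes. A gene is said to have risen or fallen where edgeR's quasi-likelihood test gave a Benjamini-Hochberg adjusted p under 0.05 over all 19398 genes tested. Fold changes are log2 values with the SE implied by the test. In pieces of tissue, fewer cells of a type and less RNA per cell cannot be told apart.

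The libraries held 34181446 to 53856865 counts in genes. Among them, uninjured replicate 1 and inhibitor replicate 5 stood apart from their groups in several of these genes. ADAMTS4 was at 33.1 CPM in uninjured replicate 1, against 1.73 and 2.95 CPM in replicates 2 and 3. ADAM8 was at 97.5 CPM in that library, against 20.3 and 7.07 CPM in the other 2. MMP11 was at 7.71 CPM in inhibitor replicate 5, while the rest of that group had 42.3 to 86.4 CPM. Inhibitor replicate 4 stood apart as well, with ADAMTS4 at 61.7 CPM and MMP14 at 241 CPM. The rest of the inhibitor group had 1.62 to 24.1 CPM and 50.1 to 146 CPM. In ADAMTS4 and ADAM8 uninjured replicate 1 was closer to the lowest anterior library, at 37.8 and 107 CPM, than to the other uninjured ones. Whether these libraries are what their labels say was not tested, and every uninjured and inhibitor mean that includes them carries this doubt. Numbers of called members, and the fold changes of some, are given with and without them. Family sums, medians, counts of members without overlap, marker genes and other genes of matrix breakdown are given only with all libraries.

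Summed over each family, MMP and ADAMTS RNA separated posterior from inhibitor libraries, while ADAM, TIMP and cathepsin RNA did not. The 14 MMP genes together were at 347 ± 169 CPM in uninjured tissue (SD, n = 3), 838 ± 181 CPM in anterior blastemas (n = 5), 1093 ± 283 CPM in posterior blastemas (n = 4) and 484 ± 187 CPM in inhibitor blastemas (n = 5). The lowest posterior library, at 788 CPM, was above the highest inhibitor library, at 692 CPM. The 19 ADAMTS genes were at 166 ± 52.6, 255 ± 58.4, 338 ± 41.9 and 156 ± 47.2 CPM in the same order, and here too the posterior and inhibitor libraries did not overlap. ADAM sums were 474 to 547 CPM in posterior and 383 to 480.0 CPM in inhibitor libraries, and the anterior ones, at 489 to 525 CPM, lay above the uninjured ones, at 375 to 458.5 CPM. TIMP sums were 234 ± 91.0, 390.1 ± 90.6, 451 ± 195 and 396 ± 168 CPM, and the posterior and inhibitor libraries overlapped. Cathepsin sums were 1727 ± 618, 2859 ± 247, 2729 ± 622 and 2176 ± 443 CPM, with anterior libraries at 2439 to 3037 CPM all above the uninjured ones at 1205 to 2409 CPM. These sums follow their most abundant genes and were not tested.

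**Figure D1:**
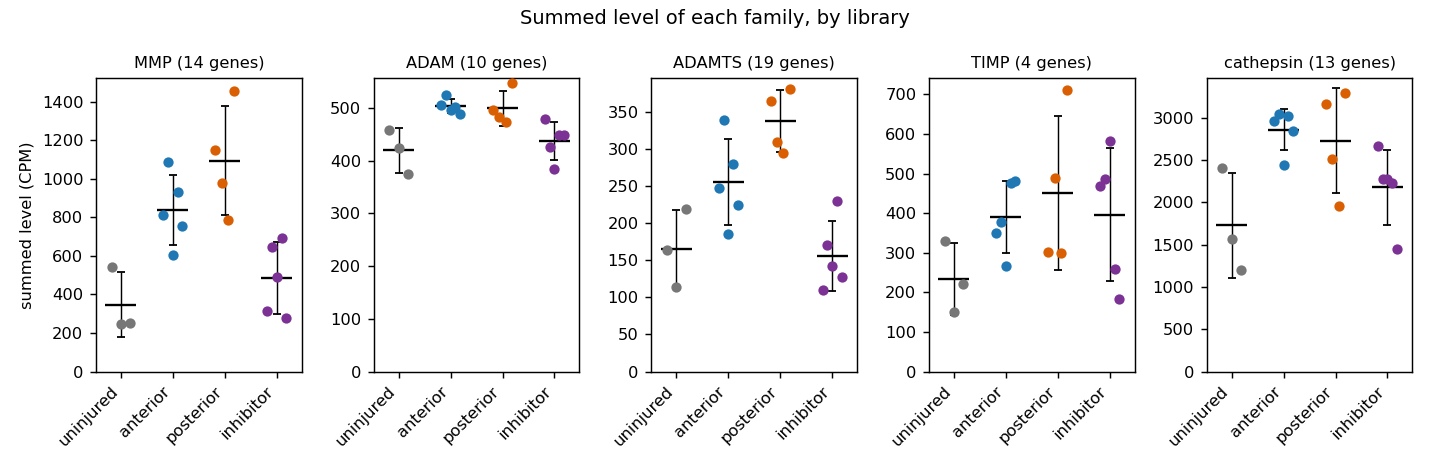
Summed level of each family in CPM (vertical axes, starting at 0) for every library of the 4 groups (horizontal axes); points are libraries, long bars the group means and short bars 1 SD. MMP and ADAMTS sums of the 4 posterior libraries lie above those of all 5 inhibitor libraries, while ADAM, TIMP and cathepsin sums of these groups overlap.

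Posterior blastemas were set against uninjured tissue to ask which of these genes differ in regeneration. MMP2, MMP25, ADAMTS9 and CTSK rose, and no member fell. That is 4 of 54 tested members called higher, against 0.866% of all genes called higher and 2.1% called in either direction. The median log2 fold change was 0.52 over the members and −0.019 over all genes.

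MMP2, a gelatinase that cuts denatured collagen and basement membrane collagen, was at 160.4, 106.5 and 91.1 CPM in uninjured replicates 1 to 3, and at 453, 351, 276 and 448 CPM in posterior replicates 1 to 4. Every posterior library was above every uninjured one, and the log2 fold change was 1.68 ± 0.41 (edgeR adjusted p = 0.0478). CTSK, a collagen-degrading cathepsin best known from mammalian osteoclasts, was at 219.8, 132 and 108 CPM in uninjured tissue and at 615, 481, 359.5 and 768 CPM in posterior blastemas. The groups did not overlap, and its log2 fold change of 1.86 ± 0.38 was the largest of the 4 (edgeR adjusted p = 0.0293). MMP25 is a membrane-anchored MMP known from mammalian leukocytes. It was at 11.2, 12.4 and 8.35 CPM in uninjured tissue and at 25.2, 33.2, 27.01 and 35.3 CPM in posterior blastemas, again without overlap (log2 fold change 1.5 ± 0.29, edgeR adjusted p = 0.0262). ADAMTS9, which cuts the proteoglycan versican, was at 2.87, 3.66 and 3.16 CPM in uninjured tissue and at 8.20, 7.86, 8.63 and 10.3 CPM in posterior blastemas. Its log2 fold change was 1.44 ± 0.27 (edgeR adjusted p = 0.0251).

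Other members had log2 fold changes of a larger size, in both directions, but did not pass the test. The most negative were ADAMTS18, at −2.11 ± 0.94 (edgeR adjusted p = 0.212), and ADAMTS19, with few reads, at −2.06 ± 1.08 (edgeR adjusted p = 0.289). ADAMTS4, an enzyme that cuts aggrecan and versican, was at 80.8, 69.0, 51.0 and 53.7 CPM in posterior blastemas (log2 fold change 2.34 ± 1.01, edgeR adjusted p = 0.195). MMP9, the second gelatinase, was at 37.2, 24.8 and 9.08 CPM in uninjured tissue and at 53.4, 80.9, 43.2 and 243 CPM in posterior blastemas. No uninjured library reached the posterior ones, but posterior replicate 4 stood far above the other 3 (log2 fold change 2.15 ± 0.58, edgeR adjusted p = 0.0623). MMP11, a secreted MMP of stromal cells in mammals, was at 153, 119.7, 114 and 261 CPM in posterior blastemas and at 83.0, 13.8 and 15.6 CPM in uninjured tissue (log2 fold change 2.11 ± 0.70, edgeR adjusted p = 0.0989). In 20 members every posterior library was above every uninjured one, and in 4 every one was below, against 8.94% and 7.72% of all genes.

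The number of calls in this comparison depended on single libraries. Without uninjured replicate 1, 17 members were called, 16 higher and CTSO lower, against 6.24% and 3.52% of all genes. The added ones included ADAM8 (log2 fold change 3.65, edgeR adjusted p = 0.00855), MMP14 (2.46, 0.0183), MMP11 (3.46, 0.0166) and ADAMTS4 (4.77, 0.0219). That library had been singled out above by its ADAMTS4 and ADAM8 levels, so these values are no independent support for those genes. In MMP14 and MMP11 it was also the highest uninjured library, so their values without it are none either. With all libraries the log2 fold change was 2.05 for ADAM8 (edgeR adjusted p = 0.0892) and 1.65 for MMP14 (0.0823). Without uninjured replicate 2 no member was called, and 4 of all genes were. Without uninjured replicate 3, posterior replicate 1 or posterior replicate 2, and in a fit of the 2 groups alone, no gene at all was called, so the loss was not particular to the members. Leaving out uninjured replicate 1 and inhibitor replicate 5 together gave 24, against 15.7% of all genes. DESeq2 called 15 members higher and 2 lower, against 5.53% and 4.72% of all genes. Macrophage markers summed to 333 to 577 CPM in uninjured tissue, 691 to 1172 CPM in anterior and 600.4 to 1106 CPM in posterior blastemas, and the 9 connective tissue markers to 6392 to 10230 CPM, 6800 to 11690 CPM and 10760 to 15970 CPM. None of either list was called against uninjured tissue, and their part in the results was not tested.

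**Figure D2:**
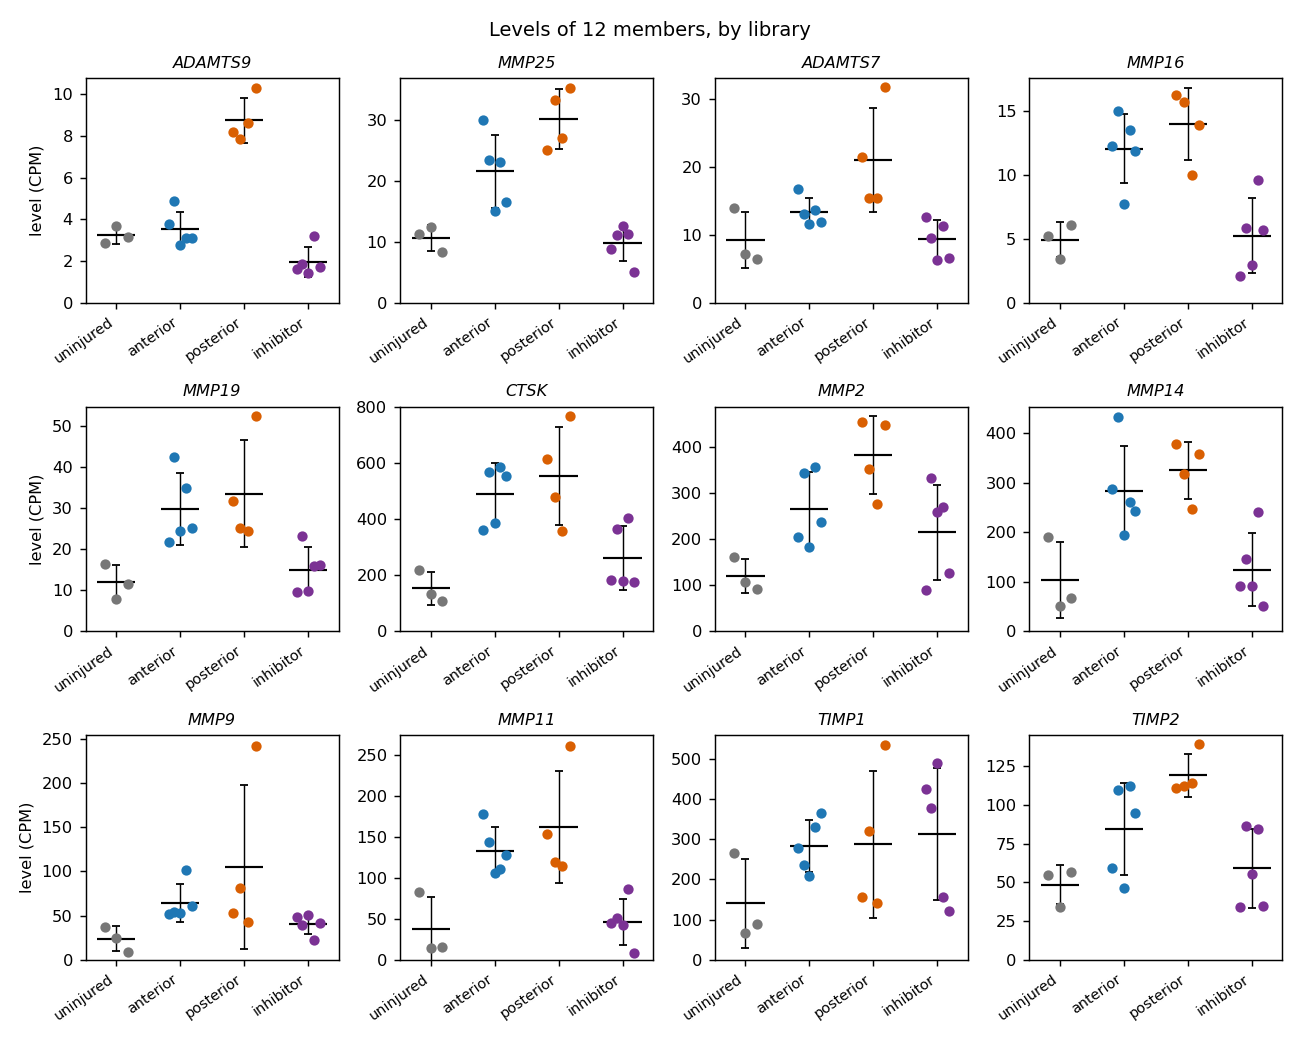
Level of 12 members in CPM (vertical axes) in each library of the 4 groups (horizontal axes); points are libraries, long bars group means and short bars 1 SD. ADAMTS9 is highest in the 4 posterior libraries, at 7.86 to 10.3 CPM, and TIMP1 spreads widely in the posterior and inhibitor groups.

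In anterior blastemas, no member passed the test against uninjured tissue, 0 of 54 against 0.206% of all genes. At an unadjusted p under 0.05 there were 26 members, 18 higher and 8 lower, against 9.7% and 11.8% of all genes. CTSK came nearest. It was at 362, 571, 386, 588 and 553 CPM in anterior replicates 1 to 5, above all 3 uninjured libraries (log2 fold change 1.68 ± 0.37, edgeR adjusted p = 0.0539). MMP2 was at 203.5, 342, 182, 356 and 237 CPM, also without overlap (1.15 ± 0.39, edgeR adjusted p = 0.122). ADAMTS9, in contrast, was at 3.77, 4.89, 2.79, 3.10 and 3.09 CPM, within or near the uninjured range (0.13 ± 0.25, edgeR adjusted p = 0.800). The posterior and anterior comparisons share the uninjured libraries.

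Leaving out uninjured replicate 1 gave 22 calls in anterior blastemas, 17 higher and 5 lower, against 9.98% and 8.55% of all genes. Leaving out any other single library of either group gave 0, where 0 to 27 of all genes were called. Uninjured replicate 1 had been singled out above by its ADAMTS4 and ADAM8 levels, so their values without it are no independent support. The same holds for MMP11, MMP14, TIMP1, CTSL, CTSB, CTSC, CTSD and CTSZ, in which it was also the highest uninjured library. The genes that then rose came from every family. ADAM8, a sheddase of mammalian leukocytes, was at 146, 189.9, 107, 151 and 129 CPM in anterior blastemas (log2 fold change 3.40, edgeR adjusted p = 0.00447). ADAMTS4 was at 56.4, 95.8, 37.8, 39.8 and 42.7 CPM (4.55, edgeR adjusted p = 0.0133). MMP11 was at 178, 144, 105.5, 111 and 128 CPM (3.18, edgeR adjusted p = 0.0102). MMP14, a membrane collagenase that also activates MMP2, was at 288, 433, 194, 260.4 and 244 CPM, against 51.5 and 66.9 CPM in the 2 uninjured libraries kept (2.26, edgeR adjusted p = 0.0120). TIMP1, an inhibitor of MMPs, rose beside them: it was at 279, 236, 208, 329.9 and 365 CPM, against 66.0 and 87.7 CPM (1.89, edgeR adjusted p = 0.0465). The library left out was at 267 CPM for TIMP1 and 191 CPM for MMP14. With all libraries the log2 fold changes were 1.02 (TIMP1, edgeR adjusted p = 0.305), 1.46 (MMP14, 0.119) and 1.83 (MMP11, 0.143). They were 1.80 for ADAM8 (edgeR adjusted p = 0.130) and 2.11 for ADAMTS4 (0.226). Among lysosomal enzymes, CTSL (1.49), CTSB (1.07), CTSC (1.01), CTSD (0.98) and CTSZ (1.19) rose as well. For CTSL and CTSB the library left out, at 505 and 566 CPM, lay within the anterior range. For CTSC, CTSD and CTSZ it lay below that range. Without inhibitor replicate 5 in addition, 23 members were called, against 22.7% of all genes. With all libraries, DESeq2 called 12 members higher and 3 lower, against 3.74% and 4.82% of all genes.

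The 5 members that fell without that library were ADAMTS18, ADAMTS2, ADAMTS20, TIMP4 and CTSO. As 5 of 54 tested, they were near the share of all genes called lower in that setting, 8.55%. None of them was called with all libraries. ADAMTS18 was at 8.82 and 23.4 CPM in uninjured replicates 2 and 3 but 0.939 CPM in replicate 1, and at 2.10, 1.68, 0.589, 1.21 and 0.633 CPM in anterior blastemas (log2 fold change −3.69, edgeR adjusted p = 0.0120). ADAMTS2, which trims the amino end of procollagen, was at 4.36, 9.74 and 20.7 CPM in uninjured replicates 1 to 3 and at 2.91, 4.51, 3.95, 4.599 and 4.64 CPM in anterior blastemas (−1.88 without replicate 1). TIMP4 was at 7.06, 45.1 and 67.6 CPM in uninjured replicates 1 to 3, so that replicate 1 lay below all 5 anterior libraries, at 9.07 to 27.1 CPM. In each of these genes uninjured replicate 1 was on the side of the blastemas, so values without it are no independent support. Markers of skeletal muscle did not pass the test. Their 4 tested genes summed to 517 CPM in the lowest uninjured library, replicate 1, and to 12880 CPM in the highest, replicate 3. In anterior blastemas they summed to 1.01 to 1817 CPM. CKM, one of them, was at 111, 2654 and 5454 CPM in uninjured replicates 1 to 3. The part of muscle RNA in the result was not tested.

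**Figure D3:**
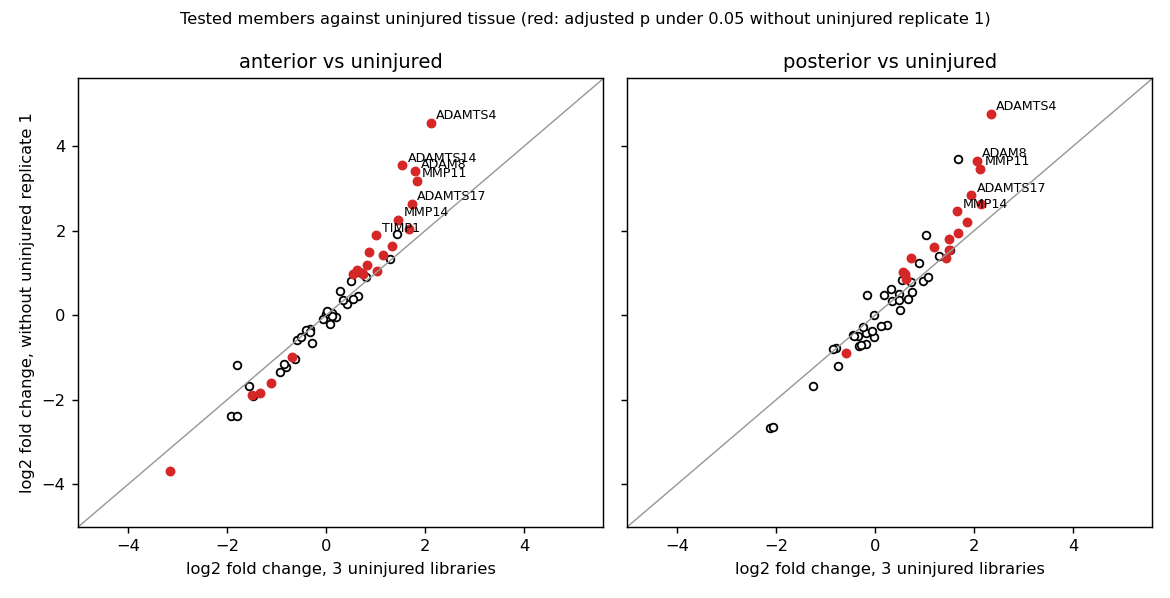
Log2 fold changes against uninjured tissue of the 54 tested members, with all 3 uninjured libraries (horizontal axes) and without uninjured replicate 1 (vertical axes), for anterior and posterior blastemas; red points had an edgeR adjusted p under 0.05 without that library, and the diagonal marks equal values. ADAMTS4, ADAM8, MMP11 and ADAMTS14 lie well above the diagonal in both panels.

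Inhibitor and posterior blastemas were compared to ask which of these genes change when MEK is blocked. ADAMTS9, MMP25, ADAMTS7, MMP16, MMP19 and CTSK fell, and no member rose. That is 6 of 54 called lower, against 3.99% of all genes called lower and 8.12% called in either direction. The median log2 fold change was −0.61 over the members and −0.0022 over all genes. A negative value was found in 45 of the 54, and a positive one in 49.7% of all genes. By family the median was −1.06 for the MMPs, −0.89 for the ADAMTS genes, −0.53 for the TIMPs, −0.18 for the cathepsins and −0.17 for the ADAMs.

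ADAMTS9 fell the most of the 6. It was at 1.62, 1.88, 1.43, 3.23 and 1.70 CPM in inhibitor replicates 1 to 5, all below the posterior libraries at 7.86 to 10.3 CPM (log2 fold change −2.15 ± 0.24, edgeR adjusted p = 0.00159). MMP25 was at 8.90, 11.2, 12.6, 11.2 and 5.12 CPM, less than the lowest posterior value of 25.2 CPM in every library (−1.62 ± 0.25, edgeR adjusted p = 0.00892). These were the 2 members called whichever posterior or inhibitor library was left out.

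MMP16, a membrane MMP, was at 2.11, 5.86, 2.91, 9.60 and 5.71 CPM in inhibitor blastemas and at 16.2, 15.7, 9.99 and 13.9 CPM in posterior ones (log2 fold change −1.41 ± 0.35, edgeR adjusted p = 0.0273). Inhibitor replicate 4 came close to posterior replicate 3, without overlap. ADAMTS7, which cuts cartilage oligomeric matrix protein, was at 12.7, 9.55, 6.33, 11.3 and 6.63 CPM, against 21.5, 15.4, 15.4 and 31.7 CPM (−1.17 ± 0.28, edgeR adjusted p = 0.0238). MMP19, a secreted MMP, was at 9.58, 23.1, 9.91, 15.9 and 16.2 CPM, against 31.9, 25.1, 24.5 and 52.5 CPM (−1.16 ± 0.31, edgeR adjusted p = 0.0362). CTSK was at 182, 367, 179, 405 and 174 CPM, and 2 of these values lay above posterior replicate 3 at 359.5 CPM (−1.09 ± 0.31, edgeR adjusted p = 0.0449). It was the one gene of the 6 whose groups overlapped. Without inhibitor replicate 5, MMP19 and CTSK were not called. Over 18 alternative settings CTSK lost its call in 11, MMP19 in 8, MMP16 in 7 and ADAMTS7 in 4. ADAMTS9 and MMP25 lost theirs in 1 each.

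MMP14, the membrane collagenase, was at 92.1, 146, 90.8, 241 and 50.1 CPM in inhibitor blastemas and at 378, 319, 246 and 358 CPM in posterior ones, without overlap, but missed the threshold (log2 fold change −1.39 ± 0.42, edgeR adjusted p = 0.0555). TIMP2, which both inhibits MMPs and takes part in MMP2 activation, was at 34.03, 86.7, 55.1, 84.2 and 34.9 CPM, against 111, 112, 114 and 139.7 CPM (−1.01 ± 0.31, edgeR adjusted p = 0.0591). MMP11 was at 45.1, 51.1, 42.3, 86.4 and 7.71 CPM (−1.80 ± 0.57, edgeR adjusted p = 0.0645). In these 3 genes every inhibitor library was below every posterior one. Such separation was seen in 18 members on the lower side and in 1, the sheddase ADAM10, on the higher side, against 6.02% and 6.25% of all genes.

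ADAMTS14, a procollagen-trimming enzyme, and ADAM19, a membrane metalloprotease, had the next most negative values after ADAMTS9, with wide errors. ADAMTS14 was at 3.09, 1.73, 1.78, 7.67 and 0.180 CPM in inhibitor blastemas and at 18.3, 9.63, 9.56 and 10.3 CPM in posterior ones (log2 fold change −2.04 ± 0.84, edgeR adjusted p = 0.144). ADAM19 was at 0.211, 1.75, 1.54, 0.709 and 0.669 CPM, against 2.35, 4.44, 6.38 and 3.66 CPM (−2.10 ± 0.76, edgeR adjusted p = 0.0961). Neither passed the test, although neither gene's groups overlapped.

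TIMP1 did not pass the test and had a value near 0. It was at 425, 377, 489, 156 and 122 CPM in inhibitor blastemas and at 155, 321, 141 and 534 CPM in posterior ones, and the groups overlapped (log2 fold change 0.13 ± 0.50, edgeR adjusted p = 0.915). CTSL was likewise spread over one range in both groups, at 201 to 618 CPM and 326 to 659.5 CPM (−0.10 ± 0.34, edgeR adjusted p = 0.899). The sheddases ADAM10 and ADAM17 spread little over the 17 libraries, from 228 to 321 CPM and from 52.9 to 63.3 CPM. CTSF, a lysosomal cysteine protease, was at 137, 80.9, 109.9, 85.6 and 96.0 CPM in inhibitor blastemas and at 72.5, 57.3, 68.2 and 99.6 CPM in posterior ones (0.45 ± 0.17, edgeR adjusted p = 0.102).

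**Figure D4:**
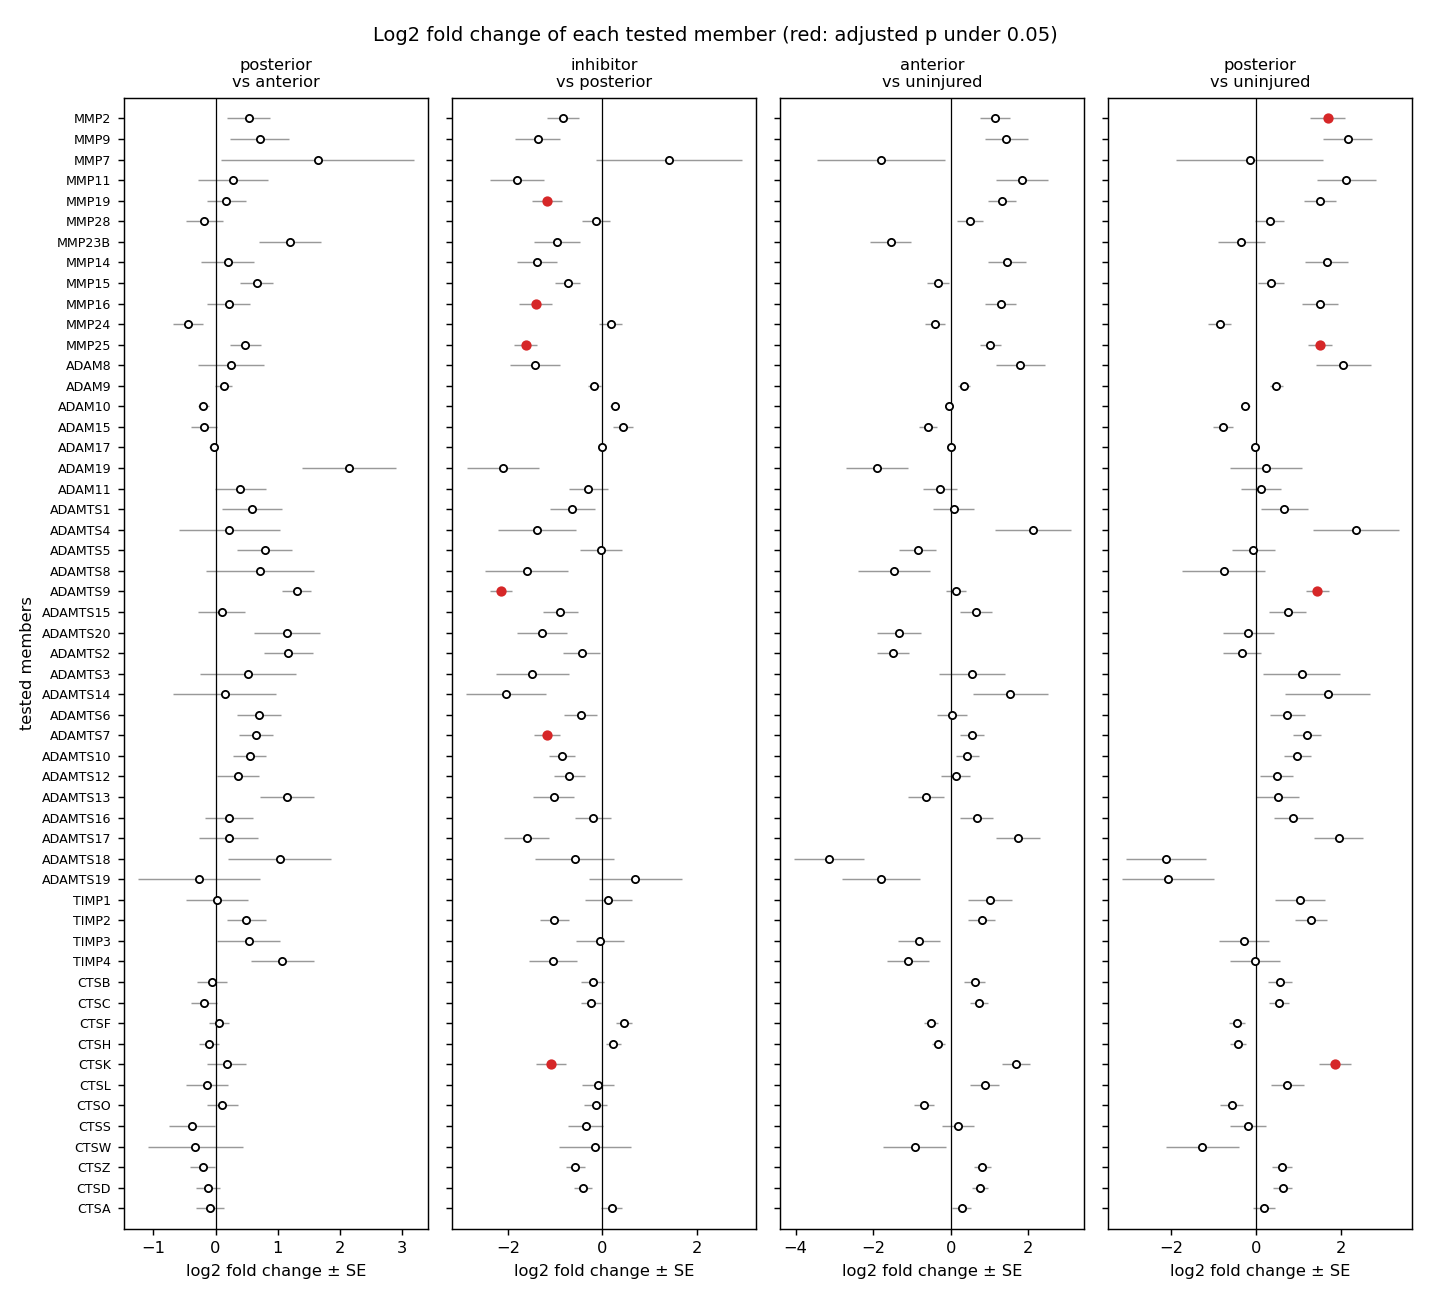
Log2 fold changes of tested members in the comparisons of the 4 groups, ordered by family (vertical axis), with the log2 fold change on the horizontal axes and bars of 1 SE; red filled points passed the test at an edgeR adjusted p under 0.05. With the inhibitor 45 of 54 members lie below 0 and 6 of them are filled.

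Which members are counted here also changed with single libraries. Without inhibitor replicate 4, 12 were called lower, against 6.75% of all genes. MMP14 (log2 fold change −1.78, edgeR adjusted p = 0.0134), MMP11 (−2.15, 0.0329) and TIMP2 (−1.18, 0.0315) were among them. That library had been singled out above by its MMP14 and ADAMTS4 levels, so the MMP14 value is no independent support. In MMP11 it was the highest inhibitor library as well, at 86.4 CPM, and in TIMP2 it was near the highest, at 84.2 CPM. Fewer members were called without posterior replicate 1 (2 members), inhibitor replicate 3 (2), posterior replicate 2 (3) or inhibitor replicate 1 (3). Calls over all genes fell as well, from 1576 to 127, 678, 307 and 450 in that order. Without posterior replicate 4 there were 4, of which CTSF was called higher, where 1260 of 19342 genes were called (680 higher and 580 lower). Without inhibitor replicate 5 there were 4 (ADAMTS7, ADAMTS9, MMP16 and MMP25), all lower, where 1448 of 19332 genes were called (621 lower). MMP19 and CTSK were not called without that library. Without it and uninjured replicate 1 together there were 11, all lower, against 5.92% of all genes called lower. DESeq2 called 15 members lower with all libraries, against 7.73% of all genes.

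Summed markers of macrophages, connective tissue and cartilage were lower with the inhibitor in the same comparison. The 6 tested macrophage genes summed to 600.4 to 1106 CPM in posterior and 302 to 515 CPM in inhibitor blastemas, and 3 of them (C1QA, C1QB and C1QC, subunits of a complement protein) fell. The 9 connective tissue genes summed to 10760 to 15970 CPM and 3021 to 8766 CPM, and 3 of them (PDGFRA, PDGFRB and PRRX2) fell. The 5 cartilage genes summed to 110.5 to 176 CPM and 42.7 to 82.2 CPM, and ACAN fell. ACAN had few reads, at 3.42, 0.408, 1.03 and 0.305 CPM in posterior replicates 1 to 4 and 0 to 0.122 CPM in inhibitor blastemas. Most of the cartilage sum came from COL2A1 and SOX9, which were not called (edgeR adjusted p = 0.0683 and 0.746). Osteoclast genes, of which 4 were tested, summed to 76.1 to 145 CPM and 61.1 to 92.8 CPM, with none called. Of the granulocyte (2 tested), wound epidermis (3), skeletal muscle (4), endothelium (5) and lymphocyte (5) markers none was called in any of the 4 comparisons. Of the listed markers found under their symbols, none was at 0 reads in a whole group. MPEG1, MPO, ELANE, PRTN3, KRT5, KRT17, KRT6A, ACTA1 and MYH3 were not found and were not analysed. The 2 granulocyte genes summed to 6.37 CPM or less in every library. The part of these cell types in the result was not tested.

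Posterior and anterior blastemas were compared to ask whether the proteases differ with position. No member passed the test, 0 of 54 against 0.00516% of all genes. At an unadjusted p under 0.05 there were 8 members, all higher in posterior blastemas, against 5.56% of all genes on that side. ADAMTS9 was the nearest to a call. Its posterior libraries, at 7.86 to 10.3 CPM, lay above its anterior libraries, at 2.79 to 4.89 CPM (log2 fold change 1.31 ± 0.23, edgeR adjusted p = 0.122). With DESeq2 it was the 1 member called, against 0.773% of all genes.

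Most ADAMTS genes had higher values in posterior blastemas, though none passed. Of the 19, 18 had a positive log2 fold change, with a median of 0.59, against 50% of all genes and a median of −7.3e-05. ADAMTS2 was at 6.55, 6.23, 12.1 and 12.2 CPM in posterior blastemas, above all anterior libraries at 2.91 to 4.64 CPM (1.17 ± 0.39, edgeR adjusted p = 0.408). ADAMTS20, which cuts versican in the skin of mice, was at 3.40, 5.09, 5.45 and 5.12 CPM, against 1.14 to 3.33 CPM (1.14 ± 0.53, edgeR adjusted p = 0.519). TIMP4 was at 34.2, 50.04, 38.7 and 33.7 CPM, against 9.07 to 27.1 CPM (1.08 ± 0.51, edgeR adjusted p = 0.524). In 6 members every posterior library was above every anterior one and in 2, MMP24 and ADAM10, below, against 2.78% and 2.07% of all genes. Of the 12 cathepsins tested, 9 had a negative value, with a median of −0.11. Skeletal muscle markers summed to 964 to 6429 CPM in posterior and 1.01 to 1817 CPM in anterior blastemas. All 9 connective tissue markers had a positive log2 fold change, with a median of 0.39, and the 5 cartilage markers had a median of 1.05, with none of any list called. Their part in these values was not tested.

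**Figure D5:**
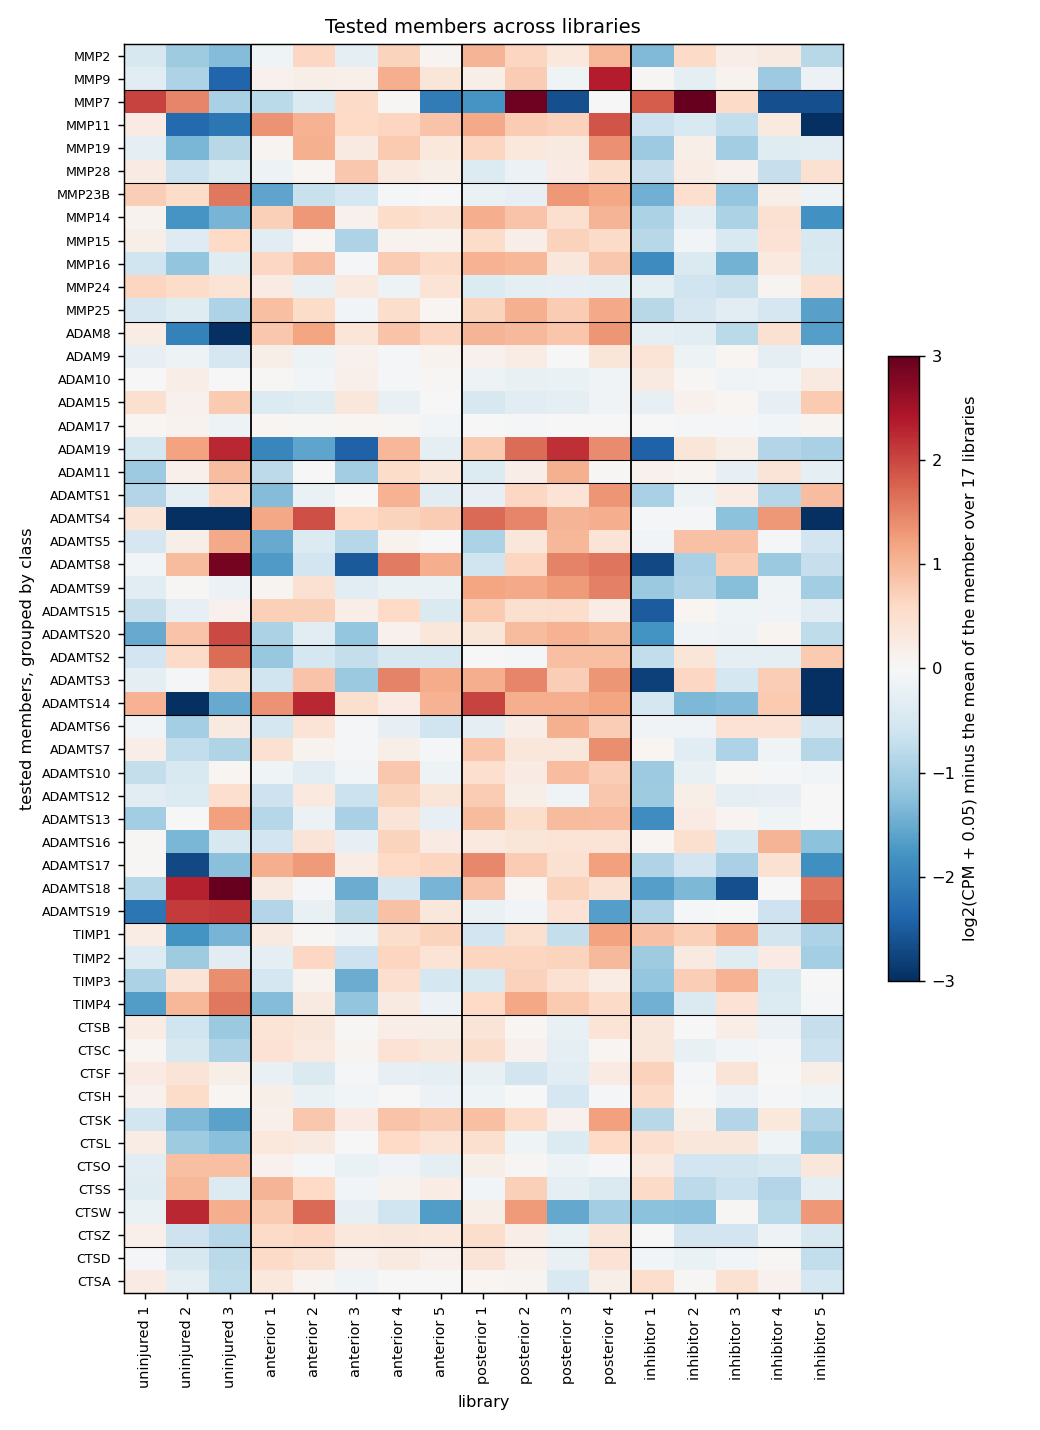
Level of the 54 tested members (rows, grouped by family) in the 17 libraries (columns, grouped) as log2(CPM + 0.05) minus the mean of the gene over the 17 libraries; the colour scale stops at 3 in each direction. ADAMTS9 and MMP25 are above their means in all 4 posterior libraries and below them in all 5 inhibitor libraries, and uninjured replicate 1 differs from replicates 2 and 3 in rows such as ADAMTS4 and ADAM8.

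The highest and lowest fold changes of several comparisons belonged to genes with few reads or a wide spread, and none of these passed. MMP7, an epithelial MMP in mammals, was at 0 to 1.23 CPM in 15 of the 17 libraries and at 2.31 and 7.17 CPM in posterior replicate 2 and inhibitor replicate 2. Its log2 fold changes were 1.65 ± 1.56 between posterior and anterior, 1.42 ± 1.55 with the inhibitor and −1.80 ± 1.65 between anterior and uninjured. ADAM19 had 2.15 ± 0.76 between posterior and anterior and −1.91 ± 0.80 between anterior and uninjured. CTSW, a cathepsin of mammalian cytotoxic lymphocytes, was at 2.62 to 28.01 CPM in anterior blastemas, 2.90 to 20.6 CPM in posterior blastemas and 7.42 to 41.2 CPM in uninjured tissue (−1.26 ± 0.86 between posterior and uninjured). Lowest of the values between posterior and anterior were MMP24 at −0.44 ± 0.24 and CTSS, a cathepsin of antigen-presenting cells, at −0.38 ± 0.38.

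Reads were too few for a test in 6 members. MMP17 had 9 reads, all in anterior blastemas, and MMP21 and ADAM33 had fewer. ADAM22 and ADAM23, which lack the zinc-binding motif of active ADAMs and act in neurons, and CTSE, an aspartic cathepsin, were also left untested. An overlap with another gene in RefSeq's annotation was found for 15 members, ADAMTS9 and 3 TIMP genes among them. Reads that fall on exons of both genes go to neither in the unstranded counts. In 13 of the 15 the unstranded reads equalled the sum of both strands, so no loss to a gene on the opposite strand was seen. ADAMTS9 kept 97.7% of the reads counted by strand. A loss to a gene on the same strand would not show in this check. With second-strand counts ADAMTS9 had a log2 fold change of −2.07 with the inhibitor (edgeR adjusted p = 0.00401) and of 1.38 between posterior and uninjured (edgeR adjusted p = 0.0385). ADAMTS19 is another of the 15: its 188 reads were 41.8% of those counted when the strands were taken separately, so its values are uncertain. MMP1, MMP3, MMP8, MMP13 and ADAM12 were not found under these symbols and were not analysed. The MMP and ADAM sums, and the ratio of MMP to TIMP RNA given below, leave them out.

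Other genes of matrix breakdown and its control were counted for comparison. Of 36 tested, none was called between posterior and anterior blastemas, and 13 were called with the inhibitor, where 8.12% of all genes were. Of these 10 fell, among them PLAT, a plasminogen activator (log2 fold change −1.36), FAP, a protease of activated fibroblasts (−1.13), HTRA3, a secreted serine protease (−1.76), BMP1, which trims procollagen (−0.79), and RECK, a membrane inhibitor of MMPs (−0.53). SPINT1 (0.52) and SPINT2 (0.66), epithelial inhibitors of serine proteases, and the convertase PCSK7 (0.62) rose. SPINT2 was at 749, 607, 544, 546 and 774 CPM in inhibitor blastemas and at 362, 324, 401 and 549 CPM in posterior ones. Against uninjured tissue, posterior blastemas had FAP (1.44), HPSE (0.76) and TLL1 (1.80) higher and PCSK7 (−0.66) lower, where 2.1% of all genes were called, and anterior blastemas had no call.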

How the data were processed

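Polyadenylated RNA of 17 forelimb libraries was analysed in the 4 groups given by the labels. Per the submitters' processing notes the authors used Trimmomatic 0.39 and STAR 2.7.3a. No build or annotation was stated (not given in the sources used here), and no coordinates are printed. The deposited files hold raw, unnormalized counts per gene. Unstranded counts were used. Reads on the second strand were 1.90 to 2.16 times those on the first, so neither strand alone held nearly all reads. Reads not assigned to a single gene, 14.25% to 16.4%, were left out.

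Genes were filtered with filterByExpr (19398 kept), scaled by TMM (factors 0.862 to 1.08) and fitted together, with a mean for each group, in edgeR 4.0.16 under R 4.3.3 (quasi-likelihood F test, robust; Benjamini-Hochberg adjustment over all genes, threshold 0.05). The SE is the size of the log2 fold change over the square root of F. The test was checked on simulated data. Within groups no library was a repeat of another: chi-square over degrees of freedom was 66.1 to 646 for pairs of replicates. Pairs from different groups were not examined, and separate libraries made from the same animal would not show in this check.

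Members and lists were chosen with earlier results of these data known. Named genes were, per comparison, up to 8 called members, the 3 highest and 3 lowest fold changes, and a fixed set, part of which is given as ranges. Genes named outside this rule were chosen after their values were seen. Marker lists covered macrophages, granulocytes, osteoclasts, wound epidermis, connective tissue, cartilage, skeletal muscle, endothelium and lymphocytes. Overlapping genes come from RefSeq (assembly UKY_AmexF1_1, used for names and neighbours only). Alternatives were RLE scaling, no filter, a filter at CPM 1 in at least 3 libraries (stricter), second-strand counts, only the groups compared, a replicate block, leaving out each library, and DESeq2 1.42.0. Leaving out uninjured replicate 1 and inhibitor replicate 5 together, and total-count scaling, were added after seeing the data.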

Additional observations from a re-analysis of the deposited data

Results flagged for a closer look

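For 20 members the 3 groups of 4 or 5 libraries were examined, 60 member and group pairs. In 7 of these a library was far from the others of its group by Dixon's test at the 95% level. With normally distributed values chance alone flags about 1 of 20 groups. The test used CPM without a log transform, on members named for calls or extreme fold changes. The rate therefore cannot be applied to the 7. ADAMTS14 was at 18.3 CPM in posterior replicate 1, against 9.56 to 10.3 CPM in the other posterior libraries. MMP9 was at 101.3 CPM in anterior replicate 4, against 51.5 to 60.9 CPM. ADAMTS9 was at 3.23 CPM in inhibitor replicate 4, against 1.43 to 1.88 CPM, and so nearer to the posterior libraries than the rest of its group. Inhibitor replicate 5 was high in ADAMTS18, at 5.40 CPM against 0.239 to 1.71 CPM, and in ADAMTS19, at 0.694 CPM against 0.0703 to 0.173 CPM. MMP7 was at 2.31 CPM in posterior replicate 2, against 0 to 0.262 CPM, and at 7.17 CPM in inhibitor replicate 2, against 0 to 1.05 CPM.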

How the results depend on the processing

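The number of members called moved by over 1.5 times in the following settings. DESeq2 called 1 member between posterior and anterior, 15 with the inhibitor, 15 between anterior and uninjured and 17 between posterior and uninjured. Without uninjured replicate 1 and inhibitor replicate 5 together the numbers were 11 with the inhibitor, 23 for anterior and 24 for posterior against uninjured. The stricter filter called 1 member, CTSK, between anterior and uninjured, where 142 of 16538 genes were called. Fitting only the groups compared called 0 between posterior and uninjured, where 0 of all genes were called. With the replicate number as a block, 1 member (MMP11) was called with the inhibitor, where 25 of all genes were called, and 0 between posterior and uninjured, where 0 of all genes were called. The block called 0 members between anterior and uninjured, where 60 of 18532 genes were called. Same-numbered libraries' deviations correlated at −0.24 to 0.30, below 0.1 for at least 1 number in each comparison. The highest value, 0.30, was for replicate 1 of anterior and uninjured. With so few numbers in a comparison these values cannot decide whether libraries are paired. The main fit has no block because the labels state no batch. Library names of anterior and uninjured replicates 1 to 3 share a prefix number by number, and the labels do not say whether it marks an animal. Leaving out 1 library at a time gave 2 to 12 calls with the inhibitor, where 127 to 2381 of all genes were called. Between anterior and uninjured it gave 0 to 22, where 0 to 3675 of all genes were called. Between posterior and uninjured there were 0 to 17, where 0 to 1935 of all genes were called. Between posterior and anterior it gave 0 in each case, over the members and over all genes. RLE scaling, no filter, second-strand counts and total counts kept each number within 1.5 times. Total counts gave a median log2 fold change over all genes of 0.12 between anterior and uninjured and of 0.14 between posterior and uninjured. Under TMM these medians were −0.0163 and −0.0195. Total counts also moved the split of all called genes, to 440 higher and 736 lower with the inhibitor (802 and 774 under TMM). The split was 44 and 30 for anterior against uninjured (13 and 27), and 173 and 100 for posterior against uninjured (168 and 240).

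Among members named, log2 fold changes turned sign in 7 cases, none of them called. MMP7 between posterior and anterior was −0.33 with the block, and −0.99 (without posterior replicate 2) to 2.08 over the libraries left out. With the inhibitor it was −0.81 (without inhibitor replicate 2) to 4.05. CTSW between posterior and anterior was −1.08 to 0.30 (without anterior replicate 2). ADAMTS19 with the inhibitor was −0.44 with second-strand counts, −0.19 (without inhibitor replicate 5) to 1.11 over the libraries left out, and −0.20 without inhibitor replicate 5 and uninjured replicate 1. The cause of these changes was not tested. Groups of 3 to 5 libraries limit what could be called.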

Other observations

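The ratio of summed MMP to summed TIMP RNA, computed after the values were seen, was 3.80, 2, 2.64 and 2.05 in posterior replicates 1 to 4 and 0.668, 1.32, 0.841, 2.66 and 1.52 in inhibitor replicates 1 to 5. It was 1.57 to 2.88 in anterior blastemas and 1.14 to 1.64 in uninjured tissue. Inhibitor replicate 4 lay within the posterior range and the other 4 inhibitor libraries below it. The ratio follows abundant genes such as MMP2, MMP14 and TIMP1, whose levels are not corrected for transcript length, and it was not tested.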
